A study of Mus musculus with 6 samples.

Results

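Marker genes of microglia and other macrophages were followed in RNA from cultured mouse cerebellar granule neurons. The set holds 37 listed genes, and a gene was a member when its symbol equalled a gene name in the count table, which 36 of the 37 did out of 23366 genes in all. The transcription factor gene Spi1 was the exception, and the row under its older symbol Sfpi1 is described beside the members without being counted. The cultures came from the cerebella of a litter of C57BL/6 pups at postnatal day 7, so animals were pooled, and the cells were dissociated with papain, separated on a Percoll gradient and grown with B27 and serum. On day 1 in vitro they were infected with lentivirus made from pLKO.1, either the empty vector (control, n = 3) or the vector with the Kdm6b shRNA (knockdown, n = 3). The target gene encodes a histone H3 demethylase that removes a repressive mark. The labels name 1 hairpin for the knockdown, speak of BDNF in certain cultures without saying which, and number the replicates 1 to 3 in each group without calling them separate cultures, and p-values therefore measure the spread among these samples.

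Microglia are the resident macrophages of the brain parenchyma. They depend on signalling through the receptor Csf1r, are specified by transcription factors such as PU.1 (the product of Spi1) and Irf8, and clear debris and synapses through complement C1q, the Trem2-Tyrobp receptor complex and a protease-rich lysosome. In bulk RNA fewer cells of a type and less RNA per cell cannot be told apart. Of the members, 30 (29 of them in the table) were taken as genes of microglia or other macrophages in brain and are called microglia-specific. The name is a label for the group and does not hold for each gene. Mrc1 marks macrophages at brain borders, and in control replicate 2 Tmem119 stood at 42.7 CPM where C1qa stood at 0.12 CPM. The other 7, Lgmn, Ctsb, Ctsd, Ctsz, Grn, Cyba and Olfml3, were taken as broadly expressed, since many other cell types make them as well.

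Each library held 50326298 to 88214069 gene counts. Levels are CPM, a library's counts divided by its total and scaled with TMM factors. Kdm6b stood at 257, 146 and 170 CPM in control replicates 1 to 3 and at 88.8, 63.3 and 79.8 CPM in knockdown replicates 1 to 3 (log2 fold change −1.31, SE 0.25, edgeR adjusted p = 0.216, and −1.28, SE 0.11, edgeR adjusted p = 0.0282 with the replicate number as a block). The 14 granule neuron markers summed to 5131 to 7232 CPM in controls, against 5530 to 8124 CPM in knockdowns, so markers of the labelled cell type were present in every library. On average the specific members were lowest in both libraries of replicate number 2, and within number 1 they differed widely between control and knockdown. Each level below is therefore given by replicate number, in the order 1, 2 and 3.

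Promoters are shown for C1qb, C1qc and Ctss, as examples picked because they carry the word GAGGAA, the core of the PU box at which PU.1 is known to bind macrophage promoters. Other members with the same order of libraries, such as Ptprc, Laptm5 and Trem2, hold it as well, and so do members with another order, such as Apbb1ip, Cd53 and Grn. The sequences are from RefSeq (build GRCm38.p6), run from 250 bases before to 50 bases after the annotated start, 5′ to 3′ on the gene's strand, and have each GAGGAA or its reverse complement TTCCTC in capitals, extended where the longer word GAGGAAGT or its reverse complement ACTTCCTC matched. They lie at chr4:136886151-136886450 on the minus strand for C1qb, at chr4:136892865-136893164 on the minus strand for C1qc and at chr3:95526536-95526835 on the plus strand for Ctss.
C1qb: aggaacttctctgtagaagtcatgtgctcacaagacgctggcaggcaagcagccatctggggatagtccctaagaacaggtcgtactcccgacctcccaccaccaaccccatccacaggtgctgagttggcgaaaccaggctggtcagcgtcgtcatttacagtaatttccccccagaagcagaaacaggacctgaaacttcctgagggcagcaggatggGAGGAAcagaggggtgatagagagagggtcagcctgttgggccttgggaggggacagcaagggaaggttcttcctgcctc
C1qc: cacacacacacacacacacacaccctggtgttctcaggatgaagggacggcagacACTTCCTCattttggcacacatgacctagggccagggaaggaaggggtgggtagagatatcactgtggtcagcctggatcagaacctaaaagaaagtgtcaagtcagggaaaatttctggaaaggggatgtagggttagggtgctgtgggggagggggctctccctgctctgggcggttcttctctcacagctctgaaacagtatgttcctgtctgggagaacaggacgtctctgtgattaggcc
Ctss: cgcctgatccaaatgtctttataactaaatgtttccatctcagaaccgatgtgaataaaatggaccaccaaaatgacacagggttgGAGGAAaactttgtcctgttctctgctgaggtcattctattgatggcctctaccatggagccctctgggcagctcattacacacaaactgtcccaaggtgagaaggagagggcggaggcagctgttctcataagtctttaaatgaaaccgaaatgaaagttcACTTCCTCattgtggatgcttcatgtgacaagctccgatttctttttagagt
Within the capitals, the word GAGGAA or TTCCTC begins 30 bases before the start in C1qb and 193 bases before it in C1qc, and in Ctss 164 bases before the start and again at the start itself. Promoters of 28 members were matched by symbol. GAGGAA, on either strand, was found in 17 of their 32 promoter windows (53.1%), against 28.3% of all 32851 windows of the same 300 bases. The longer word GAGGAAGT, which contains it, was found in 4 of 32 (12.5%), those of Apbb1ip, C1qc, Cd53 and Ctss, against 3.20% of all windows. Both words were chosen after the data were seen, and a match is a description of letters, not of binding.

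The members first divided by whether they disappeared in replicate number 2. C1qa, the A chain of the complement component that starts the classical pathway, stood at 23.4, 0.12 and 8.06 CPM in controls, against 0.660, 0.0557 and 4.68 CPM in knockdowns. Replicate 2 held 6 counts of C1qa in the control and 3 in the knockdown, so both libraries of that number were close to empty of this transcript, and the groups overlapped. C1qb (19.8, 0.0800 and 6.33 CPM in controls, 0.805, 0 and 5.59 CPM in knockdowns) and C1qc (21.8, 0.0800 and 7.30 CPM, then 0.671, 0.0557 and 5.37 CPM), the other chains of the same molecule, had the same order of libraries. In control replicate 2, 14 of the 34 members that passed the filter on low counts were at or under 1% of their level in control replicate 1, and all 14 were microglia-specific members. The 14 were C1qa, C1qb, C1qc, Cx3cr1, Trem2, Tyrobp, Fcgr3, Fcrls, Ly86, Ptprc, Cd52, Laptm5, Aif1 and Ctss. Lyz2, Gpr34, Fcer1g, Mpeg1 and Cd68 kept over 1% and up to 5.03%, and Irf8, Mrc1, Csf1r and P2ry12 kept 6.72% to 13.4%. At the other end Cd14 (27.7%), Cd53 (28.8%) and Apbb1ip (86.05%) kept more, and Tmem119 was higher in control replicate 2 than in control replicate 1, at 277% of it. The remaining members, P2ry13 (12, 0 and 4 counts in controls, 0, 0 and 2 in knockdowns) and Siglech (0 to 2 counts in every library), were too low to test.

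**Figure D1:**
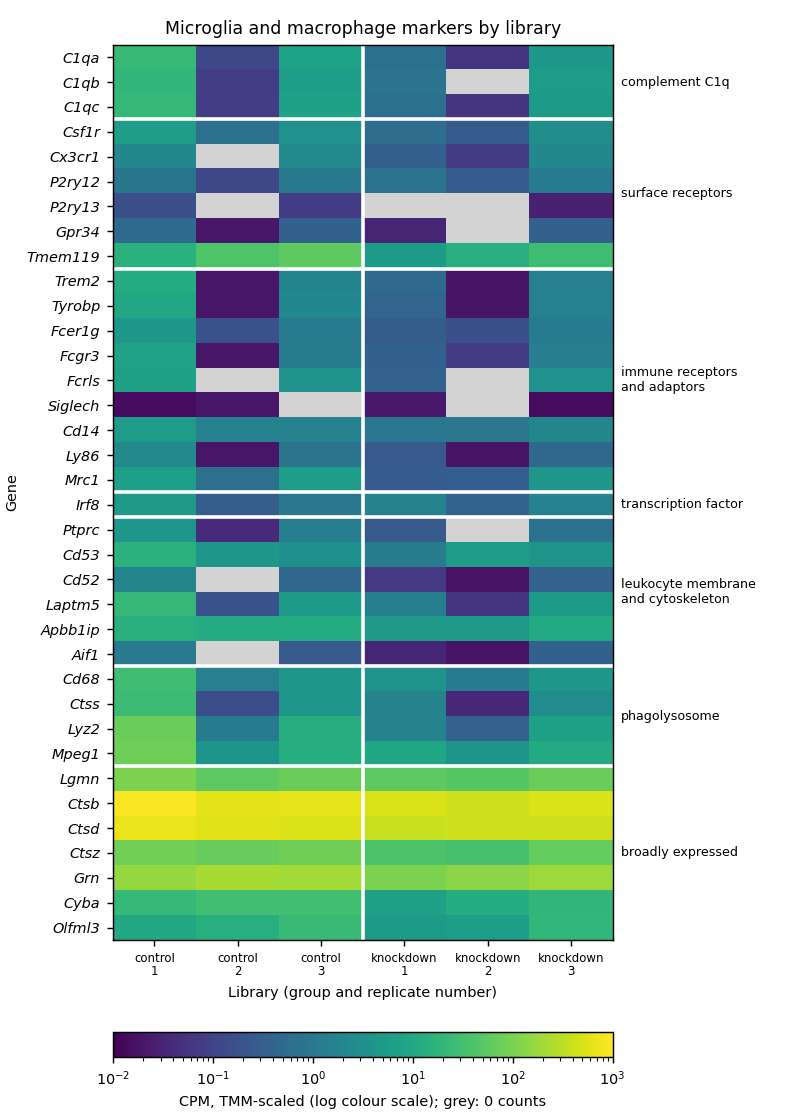
Level of each of the 36 members (rows, ordered by role) in each of the 6 libraries (columns), as TMM-scaled CPM on a log colour scale, with grey for 0 counts. Most microglia-specific members are bright in control 1, control 3 and knockdown 3 and dark in control 2 and knockdown 2, while the 7 broadly expressed members are bright in every library.

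The knockdown library of replicate number 1 differed sharply from its control. The C1q chains summed to 64.9, 0.280 and 21.7 CPM in controls, against 2.14, 0.111 and 15.6 CPM in knockdowns, which is 30.4-fold higher in the control of number 1 and 1.39-fold in that of number 3. The 29 specific members in the table summed to 419, 69.9 and 164 CPM in controls, against 38.04, 32.4 and 115 CPM in knockdowns. In number 2 most of that sum was Tmem119 (42.7 CPM in the control and 13.8 in the knockdown) and Apbb1ip (11.8 and 4.81 CPM), which did not follow C1q. Control replicate 1 was the highest library for 24 of the 27 specific members tested. Of the 34 tested members, 28 lay more than 1 below the control on the log2 scale (prior count 2) in number 1, 11 in number 2 and 1, Tmem119, in number 3, beside 7.18%, 8.31% and 2.10% of all genes tested. In number 2, 15 specific members had under 4 counts in at least 1 library, so their differences there rest on a few counts and on the prior count. C1qb had 4 counts in the control and 0 in the knockdown, Ctss 8 and 2, and Trem2 1 and 1. Within each number there is 1 library per group, so these differences have no replicate check of their own, and whether they differ between numbers was not tested.

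**Figure D2:**
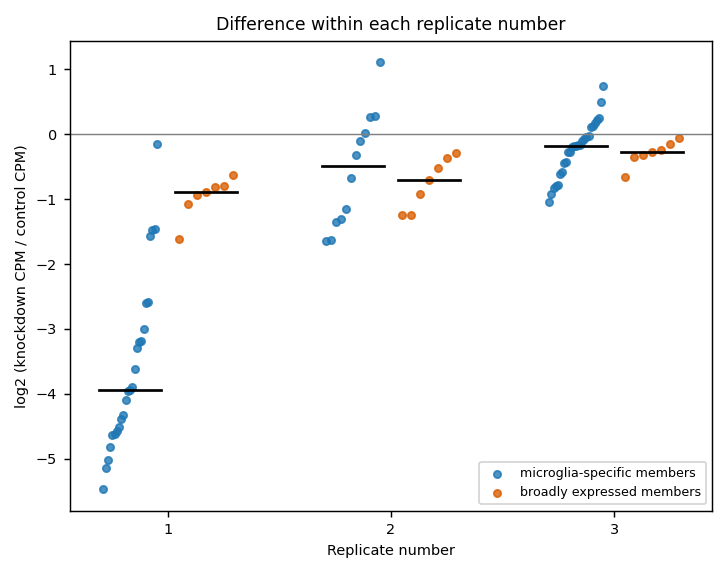
Log2 ratio of knockdown to control CPM (vertical axis) within each replicate number (horizontal axis), 1 point per member with more than 3 counts in both libraries, with medians as black bars. Specific members (blue) had a median of −3.94 in number 1 (25 members), −0.50 in number 2 (12 members) and −0.18 in number 3 (27 members), and broadly expressed members (orange) −0.89, −0.70 and −0.27 (7 members each).

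Across all 6 libraries no member passed the edgeR quasi-likelihood test without the replicate number in the model (adjusted p from 0.372 to 0.970 for the 34 tested), beside 0.00636% of all 15731 genes tested. At an unadjusted p of 0.05, 4 members were lower, all broadly expressed (Ctsb, Ctsd, Ctsz and Cyba), beside 5.8% of all genes, and limma-voom called 0 members. DESeq2 called 1 member lower, Ctsd (log2 fold change −0.57, DESeq2 adjusted p = 0.0364), beside 2.63% of the genes it tested. Libraries that carry the same number deviated from their group means together, so the fit with that number as a block is given where it changes a call. With the block 2 members fell and 0 rose, Tmem119 and Cyba, which is 5.88% of the members tested, beside 7.98% of all genes called (5.4% lower and 2.58% higher). The median log2 fold change over the tested members was −1.52 in both fits, against 0.02 over all genes tested, and 33 of 34 were below 0. That median moved to −0.54 without control replicate 1, to −2.91 without knockdown replicate 3 and, with the block, to −0.37 without number 1. With the block and without number 3, 15 of the 31 members tested there fell, beside 6.63% of all genes in that fit. Among them were the 3 C1q chains, Trem2, Tyrobp, Ptprc and Ctss. In number 2 Ctss held 8 counts in the control and 2 in the knockdown, and the others named at most 6 in either library. Calls of the named genes therefore rest mostly on 1 library per group, those of number 1. With the block and without number 1 or number 2 none passed.

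Among the surface receptors, Csf1r, the receptor for colony-stimulating factor 1 and interleukin 34, stood at 6.15, 0.660 and 3.39 CPM in controls, against 0.626, 0.260 and 2.98 CPM in knockdowns. Its log2 fold change was −1.40 (SE 1.09, edgeR adjusted p = 0.668) without and −1.60 (SE 0.69, edgeR adjusted p = 0.177) with the block. Cx3cr1, the fractalkine receptor, was at 2.02, 0 and 2.44 CPM in controls, against 0.335, 0.0742 and 2.17 CPM in knockdowns. It was as high in both libraries of number 3 as in control 1, so its ordering was unlike that of C1qa (log2 fold change −0.79, SE 1.62, edgeR adjusted p = 0.882). P2ry12, a purinergic receptor that guides microglial processes, was the 1 tested member with a fold change above 0 (0.13, SE 0.85, edgeR adjusted p = 0.970), at 65, 6 and 55 counts in controls and 72, 14 and 81 in knockdowns. Its exons overlap Med12l on the opposite strand, a gene at a mean of 66.9 CPM over the libraries, and how the counting treated strand is not stated. Gpr34, a lysophosphatidylserine receptor, had 41, 1 and 19 counts in controls and 3, 0 and 23 in knockdowns.

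Tmem119, a membrane protein used as a microglial marker in brain, behaved unlike the other surface genes. It stood at 15.4, 42.7 and 56.9 CPM in controls, against 5.20, 13.8 and 27.6 CPM in knockdowns. It was highest where C1qa was not, and lower in the knockdown within each number by 2.96-fold, 3.08-fold and 2.06-fold, although the groups overlapped. It fell in the fit with the block (−1.41 on the log2 scale, SE 0.14, edgeR adjusted p = 0.0282) and did not pass without it (−1.30, SE 0.70, edgeR adjusted p = 0.547). The 16 pericyte and fibroblast markers, cells outside the myeloid lineage, summed to 13471, 23724 and 27005 CPM in controls, against 4581, 7318 and 12404 CPM in knockdowns, which is 2.94-fold, 3.24-fold and 2.18-fold higher in the controls. In both, number 2 had the largest fold and number 3 the smallest, and the part of such cells in the Tmem119 level was not tested.

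**Figure D3:**
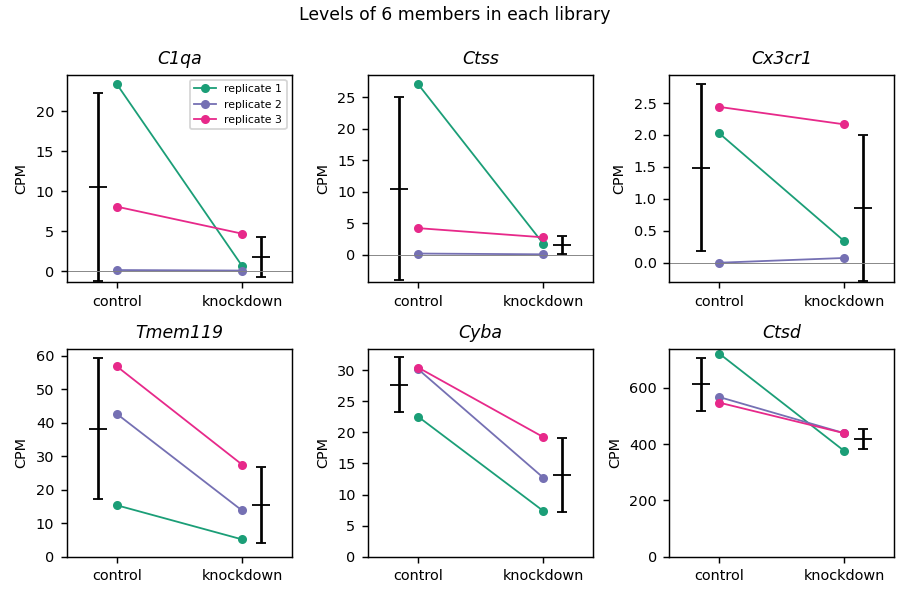
CPM of 6 members in each library, on linear axes, where lines join libraries that share a number and black marks show each group's mean and SD (n = 3). C1qa and Ctss are highest in control 1, Cx3cr1 is high in 3 libraries, and Tmem119, Cyba and Ctsd are lower in the knockdown within every number.

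Most immune receptors and adaptors were nearly absent in number 2, as C1q was. Trem2, a lipid-sensing receptor of microglia, was at 12.5, 0.020 and 1.83 CPM in controls, against 0.503, 0.0186 and 1.51 CPM in knockdowns. Its signalling adaptor Tyrobp was at 9.68, 0.020 and 2.11 CPM and at 0.425, 0.0186 and 1.58 CPM. Both had a single count in each library of number 2, and both were over 20-fold higher in the control of number 1 (24.9-fold and 22.8-fold). Their log2 fold changes were −2.82 (SE 1.87) and −2.54 (SE 1.81), with edgeR adjusted p = 0.618 and 0.639. Mrc1, the mannose receptor of macrophages at brain borders, was nearly equal in controls 1 and 3, at 6.62, 0.700 and 6.42 CPM, and stood at 0.279, 0.315 and 4.29 CPM in knockdowns (log2 fold change −1.49, SE 1.29, edgeR adjusted p = 0.701). The Fc receptor gene Fcgr3 (7.49, 0.020 and 1.26 CPM in controls, 0.358, 0.0742 and 1.36 CPM in knockdowns), the gamma chain gene Fcer1g and Cd14 had higher values in the knockdown than in the control of number 3. Fcer1g stood at 4.63, 0.180 and 1.11 CPM in controls, against 0.302, 0.167 and 1.21 CPM in knockdowns. Cd14, a co-receptor for bacterial lipopolysaccharide, was at 5.56, 1.54 and 1.62 CPM and at 0.928, 0.965 and 1.93 CPM. Fcrls (537, 0 and 187 counts in controls, 33, 0 and 231 in knockdowns) had no count in either library of number 2, where 3 counts would be 0.0600 CPM in the control and 0.0557 CPM in the knockdown. Ly86, a partner of a Toll-like receptor homologue, had 165, 1 and 45 counts in controls and 22, 1 and 33 in knockdowns.

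The transcription factor Irf8 kept a wider presence. It stood at 4.76, 0.320 and 0.991 CPM in controls, against 1.72, 0.390 and 1.65 CPM in knockdowns, higher in the knockdown of numbers 2 and 3. Sfpi1 went with C1q, at 216, 1 and 32 counts in controls and 14, 0 and 43 in knockdowns (log2 fold change −2.19, SE 1.67, edgeR adjusted p = 0.661). Among membrane and cytoskeletal genes of leukocytes, Ptprc, the tyrosine phosphatase that marks all nucleated blood cells, was at 4.23, 0.0400 and 1.35 CPM in controls, against 0.246, 0 and 0.775 CPM in knockdowns (log2 fold change −2.45, SE 1.65, edgeR adjusted p = 0.623). Laptm5, a lysosomal membrane protein of leukocytes, was at 21.3, 0.180 and 5.41 CPM and at 1.43, 0.0557 and 5.24 CPM. Aif1, the actin-binding protein detected by Iba1 antibodies, was at 1.09, 0 and 0.248 CPM and at 0.0335, 0.0186 and 0.351 CPM, and Cd52, a small surface glycoprotein of leukocytes, at 1.90, 0 and 0.457 CPM and at 0.0671, 0.0186 and 0.380 CPM. The tetraspanin gene Cd53 stood apart from them, at 15.7, 4.52 and 3.26 CPM in controls, against 1.27, 5.46 and 3.80 CPM in knockdowns, so that replicate 2 exceeded replicate 3. Apbb1ip, an adaptor that links Rap1 to the cytoskeleton, hardly varied among controls (13.8, 11.8 and 12.6 CPM), and all 3 knockdown values (5.0, 4.81 and 11.2 CPM) lay below them.

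The 4 phagolysosomal genes made up 209.8 of the 419 CPM of specific members in control 1. Lyz2, lysozyme of myeloid cells, was at 75.3, 1.16 and 13.3 CPM in controls, against 1.70, 0.371 and 7.04 CPM in knockdowns. Its control was 44.3-fold, 3.13-fold and 1.89-fold higher in numbers 1, 2 and 3, but with the spread between controls its log2 fold change of −3.30 (SE 1.60) did not pass (edgeR adjusted p = 0.522). Ctss, the cathepsin of antigen-presenting cells, was at 27.0, 0.160 and 4.19 CPM in controls, against 1.74, 0.0371 and 2.74 CPM in knockdowns (log2 fold change −2.79, SE 1.78, edgeR adjusted p = 0.602). Mpeg1, a pore-forming protein of phagocytes, kept 3.88 and 3.93 CPM in the libraries of number 2 beside 77.6 CPM in control 1, 8.53 CPM in knockdown 1, and 13.1 and 11.5 CPM in number 3. Cd68, a late-endosomal glycoprotein, had the same shape, at 29.8, 1.5 and 4.50 CPM and at 3.73, 1.21 and 4.4 CPM. Per kilobase of annotated exon (GENCODE M21) the mean control level was 22.7 CPM for Lyz2, 10.1 for C1qa, 9.50 for Cd68 and 7.70 for Ctss, against 0.589 for Csf1r, 0.330 for Cx3cr1 and 0.270 for P2ry12. In control 1 alone the order of C1qa and Cd68 turned, at 22.5 and 23.7 CPM per kilobase.

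The broadly expressed members were present in every library, and all 7 were lower in the knockdown within all 3 numbers. Across members the count was 23 of 34 (67.6%), beside 28.5% of all genes tested. Of these 23, Trem2, Tyrobp and Ly86 had 1 count in each library of number 2, so library scaling alone made them lower there. C1qa, C1qb, C1qc, Gpr34, Ptprc, Laptm5 and Ctss had under 4 counts in at least 1 library of number 2. The share of members therefore rests partly on a few counts. Cyba, the membrane subunit of the phagocyte NADPH oxidase, was at 22.5, 30.2 and 30.4 CPM in controls, against 7.38, 12.7 and 19.3 CPM in knockdowns, with no overlap. It fell in the fit with the block (−1.17 on the log2 scale, SE 0.20, edgeR adjusted p = 0.0423) and did not pass without it (−1.08, SE 0.36, edgeR adjusted p = 0.397). Cyba was 3.05-fold, 2.37-fold and 1.58-fold higher in the controls of numbers 1 to 3, and it was no higher in control 1 than in the other controls. Ctsd, the lysosomal aspartic protease, was at 720, 567 and 547 CPM in controls, against 375, 438 and 438 CPM in knockdowns, with a gap between the groups (log2 fold change −0.55, SE 0.16, edgeR adjusted p = 0.372, and 0.0825 with the block). Ctsb, a cysteine protease of lysosomes, was at 953, 612 and 640 CPM and at 546, 426 and 539 CPM (−0.55, SE 0.22, edgeR adjusted p = 0.472, and 0.0693 with the block). Ctsz was at 84.4, 67.6 and 83.4 CPM in controls, against 40.2, 35.6 and 65.5 CPM in knockdowns. It did not pass with the block either (edgeR adjusted p = 0.0523). With Apbb1ip these make 5 of 34 tested members (14.7%) whose knockdown values all lay below the controls, beside 7.44% of all genes tested, and 0 whose values all lay above, beside 9.21%.

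Grn, which encodes the growth factor precursor progranulin, was at 163, 217 and 203 CPM in controls, against 105, 134 and 183 CPM in knockdowns, with overlapping groups (log2 fold change −0.47, SE 0.23, edgeR adjusted p = 0.524). Lgmn, an asparaginyl endopeptidase, was at 101, 57.7 and 76.9 CPM and at 57.7, 47.4 and 73.9 CPM (−0.40, SE 0.25, edgeR adjusted p = 0.60). Olfml3, a secreted olfactomedin-like protein, was at 9.86, 14.1 and 24.8 CPM and at 5.31, 5.96 and 20.6 CPM (−0.61, SE 0.62, edgeR adjusted p = 0.751). None of the 3 passed with the block either (edgeR adjusted p = 0.0748 for Grn, 0.164 for Lgmn and 0.0760 for Olfml3). In the 35 other lysosomal genes, 5 fell with the block and 0 rose, beside 5.4% and 2.58% of all genes tested. They include Lamp2, a lysosomal membrane protein (221, 285 and 273 CPM in controls, 89.9, 115 and 166 CPM in knockdowns, edgeR adjusted p = 0.0319), and Npc2, a cholesterol carrier of the lysosome (edgeR adjusted p = 0.0362), and the list median was −0.20. Exons of 7 members (Cd52, Csf1r, Ctsb, Ctsz, Cx3cr1, Grn and P2ry12) overlap a gene on the opposite strand in GENCODE M21 and those of Ctsd a gene on the same strand, so their levels are uncertain to that extent.

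The make-up of the signal differed among the 4 libraries that held C1q transcripts in number, both between replicate numbers and within number 1. Relative to the summed counts of the C1q chains (4717 in control 1, 1138 in control 3, 1069 in knockdown 3 and 191 in knockdown 1), 20 other members that control 2 held at under 15% of control 1 were compared. In both libraries of number 3, 6 of the 20 were higher per C1q count than in control 1, with 95% intervals above 1: Cx3cr1, P2ry12, Mrc1, Gpr34, Csf1r and Fcrls. In the same libraries 7 members were lower, Trem2, Cd68, Ctss, Fcgr3, Mpeg1, Lyz2 and Tyrobp, and the other 7 did not differ in 1 direction in both. Knockdown 1 did not side with control 1: 12 of the 20 were higher there per C1q count, with intervals above 1, among them 4 of the 6 and 3 of the 7, and 1, Lyz2, was lower.

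Cx3cr1 had 3.12 counts per 100 C1q counts in control 1, 11.2 in control 3, 13.8 in knockdown 3 and 15.7 in knockdown 1, so control 1 was the library that stood apart. Mrc1 had 10.2, 29.6 and 27.4 in the same order and 13.1 in knockdown 1, where its ratio to control 1 was 1.28 (0.837 to 1.97). Trem2 had 19.3, 8.44 and 9.64 and then 23.6, so its libraries paired by number. Lyz2 had 116, 61.4, 45.0 and 79.6 counts per 100 C1q counts, highest in control 1. Mpeg1 (120, 60.2, 73.2 and 399) and P2ry12 (1.38, 4.83, 7.58 and 37.7) were highest in knockdown 1, and for both the difference within number 1 was larger than that between controls 1 and 3. Within number 1 P2ry12 itself had 65 counts in the control and 72 in the knockdown, while the C1q counts were 4717 and 191. Mpeg1 kept 194 and 212 counts in number 2, where C1qa had 6 and 3. How far these ratios reflect a level apart from C1q was not tested. The intervals cover counting error only, with 1 library each, and the comparison was chosen after the data were seen.

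**Figure D4:**
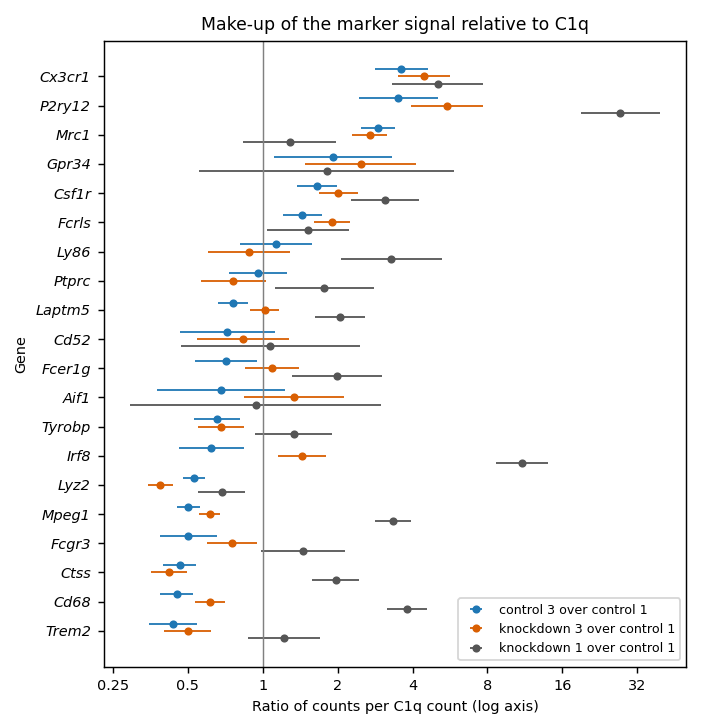
Ratio of counts per C1q count (log axis) in control 3 (blue), knockdown 3 (orange) and knockdown 1 (grey) to that in control 1 for 20 members, with 95% intervals from counting error. Cx3cr1 lies right of 1 in all 3 libraries, and Trem2 and Ctss lie left of 1 only in the libraries of number 3. The points farthest right are those of P2ry12 and then Irf8 in knockdown 1.

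Genes outside the members with the most similar profile were sought over the 6 libraries among the 14488 genes averaging 0.5 CPM or more, by the distance between centred log2 CPM and the mean profile of the 29 specific members. The closest were Nckap1l, Folr2, Pik3ap1, Cd84, Pld4, Dock2, Sfpi1, Fcgr2b, Cd180, Lrrc25, Vav1, Siglec1, Clec7a, Fcgr1 and Ms4a7. Nckap1l, a leukocyte regulator of actin, was at 15, 0.360 and 3.43 CPM in controls, against 1.30, 0.353 and 3.20 CPM in knockdowns. The 15 distances ran from 0.624 to 1.4, and over 6 libraries this ordering is a description.

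Other lists of macrophage genes gave few calls, to be read beside the 5.4% of all genes tested that fell with the block and the 2.58% that rose. Of 49 tested further macrophage genes 1 fell with the block, Ptgs1 (edgeR adjusted p = 0.0493), 0 rose, and the median log2 fold change was −0.91. Among 11 genes of border macrophages 0 fell and 1 rose, the lectin gene Clec10a (0.826, 0.320 and 0.152 CPM in controls, 2.09, 1.08 and 0.805 CPM in knockdowns, edgeR adjusted p = 0.0433), and the median was −1.24. Of 11 genes of activated microglia Axl, a receptor tyrosine kinase (99.1, 213 and 200 CPM in controls, 52.3, 105 and 131 CPM in knockdowns), and Cd63 fell (edgeR adjusted p = 0.0282 and 0.0419). Axl was lower in control 1 than in the other controls, unlike C1qa. The secreted glycoprotein gene Spp1 was at 588, 304 and 266 CPM in controls, against 76.8, 54.7 and 149 CPM in knockdowns, without overlap (edgeR adjusted p = 0.282 without and 0.0558 with the block, DESeq2 adjusted p = 0.00119).

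Ligands and regulators that act on microglia were read from the same fit, beside the same shares of all genes (5.4% lower and 2.58% higher with the block). Of 9 tested, Il34, a ligand of Csf1r made by neurons, rose (10.3, 11.6 and 11.2 CPM in controls, 15.6, 15.7 and 16.6 CPM in knockdowns, log2 fold change 0.54, SE 0.10, edgeR adjusted p = 0.0448 with the block and 0.322 without). Tgfb1, a cytokine that maintains microglial identity, fell (20.7, 23.6 and 24.7 CPM, then 9.82, 8.0 and 16.2 CPM, log2 fold change −1.08, SE 0.20, edgeR adjusted p = 0.0463 with the block and 0.339 without). Both had groups that did not overlap. Csf1 (100, 151 and 145 CPM in controls, 75.8, 103 and 139 CPM in knockdowns) and the fractalkine gene Cx3cl1 (52.0, 66.8 and 55.2 CPM, then 34.1, 32.5 and 48.1 CPM) did not pass. Of 13 other complement genes none passed with the block, the smallest adjusted p being that of C1s (edgeR adjusted p = 0.0510).

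Markers of other cells were, as summed lists, low in number 2 only for the oligodendrocyte lineage among the 4 described here. The 14 oligodendrocyte markers summed to 1292, 156 and 1322 CPM in controls, against 957, 113 and 1072 CPM in knockdowns, so number 2 was low in both groups, but in number 1 the control was 1.35-fold higher, beside 30.4-fold for C1q. The 16 astrocyte markers summed to 1760, 2094 and 4252 CPM in controls, against 1243, 1391 and 4462 CPM in knockdowns, and the 12 endothelial markers to 121, 165 and 199 CPM and to 101, 142 and 229 CPM. With the block 8 of 16 pericyte and fibroblast genes, 2 of 16 astrocyte genes, 2 of 13 oligodendrocyte genes and 0 of 12 endothelial genes fell and none rose. Of all genes tested, 5.4% fell and 2.58% rose in that fit. Markers of circulating leukocytes were low apart from Plac8. The 13 lymphocyte genes summed to at most 6.22 CPM in any library, with 3 of them at 0 in all 6. The monocyte and neutrophil list summed to at most 30.6 CPM, of which Plac8 made up 29.8 CPM in control 1. Plac8 was at 29.8, 25.7 and 27.9 CPM in controls, against 9.44, 2.65 and 13.5 CPM in knockdowns, without overlap (edgeR adjusted p = 0.389 without and 0.0624 with the block, DESeq2 adjusted p = 0.0431). The 6 red cell genes had at most 0.132 CPM in sum. The part of these cells in the members' levels was not tested.

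**Figure D5:**
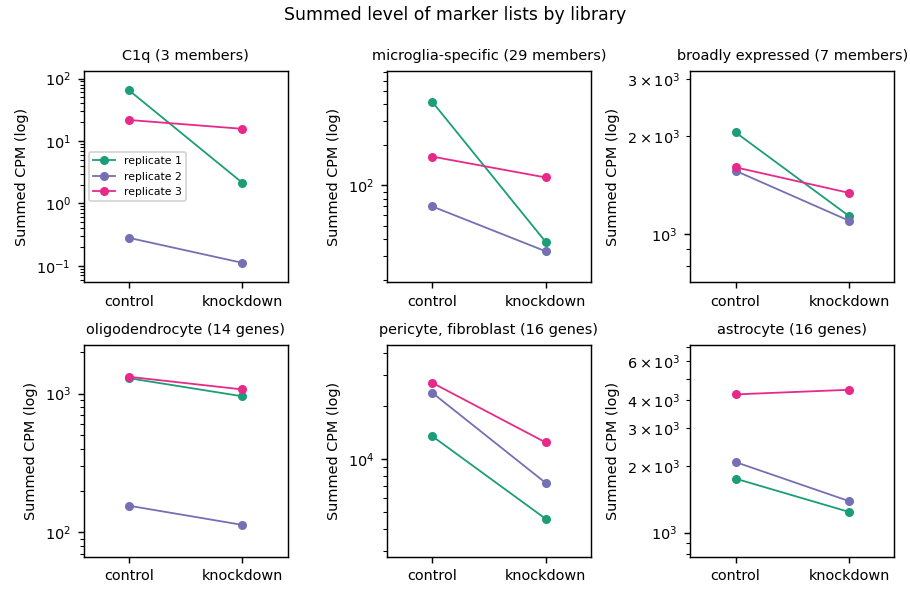
Summed CPM (log axes) of 6 marker lists by library, where lines join a control and a knockdown with 1 replicate number. The C1q sum spans 0.111 to 64.9 CPM with number 2 lowest and drops within number 1, the oligodendrocyte sum is low in number 2 in both groups, and the pericyte and fibroblast sum is lower in the knockdown of every number.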

How the data were processed

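Counts of reads per gene were deposited as 1 table for the series. They are raw whole-number counts, not normalized, made by the authors, per the submitters' processing notes, with Trimmomatic, TopHat2 and HTSeq on build mm9 (edgeR and DESeq2 are also named). Their versions and settings, the annotation and the use of strand are not stated. Libraries were stranded mRNA with 50 bp single-end reads, per the labels' protocols. Columns were assigned through the description in the labels. The 5 tallies that name no gene (outside genes 12.1% to 15.0%, ambiguous 0.406% to 0.509%, not unique 16.0% to 19.3% of all counts) were left out. No libraries of a group looked like copies (chi-square of counts over degrees of freedom, 174 to 381).

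The fit used edgeR 4.0.16 in R 4.3.3: filterByExpr (minimum count 10, minimum total 15) left 15731 genes, with TMM factors, a quasi-likelihood F test without a replicate term and Benjamini-Hochberg adjustment over all genes at 0.05. SE was obtained as |log2 fold change| over √F. Results of the fit that adds replicate number as a block stand where they change a call. Same-numbered libraries correlated at 0.772, 0.709 and 0.701 in their deviations from the group means, a pairing that comes from these data and not the labels. Log2 differences per library used a prior count of 2. Tried besides were library totals alone, RLE and upper-quartile factors, 2 other filters, DESeq2 1.42.0, limma-voom (limma 3.58.1), the block and leaving out libraries. Both fits were tested on simulated data with known changes, of which the fit without the block called none and the fit with it most. The simulation gave same-numbered libraries a shared effect per gene, which favours the block. Its outcome therefore cannot tell which fit suits these data. Fold changes were given for a fixed member of each role and every member called in either fit, and of the other lists for genes with the smallest p with the block or the highest level. The members and lists were chosen with earlier results of these data known. Exon lengths and overlaps are from GENCODE M21, matched by name.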

Additional observations from a re-analysis of the deposited data

How the results depend on the processing

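No member was called without the block under 3 other scalings, without the filter, with one at a mean of 1 CPM, with limma-voom or without any 1 library, and 0 were called higher in any fit. Members called lower numbered 1 with DESeq2, 2 with the replicate block (also with upper-quartile factors or library totals alone), 3 with the block and RLE factors, which adds Ctsz, and 0 to 15 with the block when 1 replicate number was left out. All genes called numbered 1 without the block, 0 with library totals alone, 0 without any 1 library, 568 with DESeq2, 1256 with the block (1342 with RLE, 1350 with upper-quartile factors, 1276 with library totals alone) and, with the block, 0 without number 1, 53 without number 2 and 1272 without number 3. The median log2 fold change of the tested members ran from −2.91 to −0.37. The direction of Cx3cr1 turned with limma-voom (log2 fold change 0.034) and ran from −2.81 to 0.14 over fits without 1 library or, with the block, 1 number, being above 0 with the block and without number 1. P2ry12 ran from −0.37 to 0.54 over fits without 1 library or, with the block, 1 number, and from these it was below 0 without control 2, without knockdown 3 and, with the block, without number 2 (−0.0047). The cause was not tested. The calls of Tmem119 and Cyba with the block held under each scaling (edgeR adjusted p from 0.0257 to 0.0314 and from 0.0393 to 0.0450) and were lost without number 1 or 2. The block changed no call of another member described with a fold change. Depth limits the low members: in the libraries of number 2, 15 specific members had under 4 counts in at least 1 library, so no fold of these members is given for number 2.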

Other observations

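Some genes of inflammation followed the replicate number without following the microglial members. Nos2, the inducible nitric oxide synthase of activated phagocytes and other cells, stood at 134, 3.5 and 0.381 CPM in controls, against 146, 7.55 and 0.673 CPM in knockdowns. It was as high in knockdown 1 as in control 1, where C1qa stood at 0.660 and 23.4 CPM. The chemokine gene Ccl2 was likewise at 41.1, 9.40 and 0.972 CPM in controls, against 50.9, 21.8 and 3.95 CPM in knockdowns. Of 13 cytokine and chemokine genes tested none passed with the block, beside 7.98% of all genes, Ptgs2 having the smallest p (edgeR adjusted p = 0.0683). In that fit 8 of the 13 were below 0 and 5 above, from −3.15 to 1.11 on the log2 scale with a median of −0.39. Within number 1 the median difference over the 17 listed genes was −1.01 (prior count 2), so Nos2 and Ccl2 do not stand for the list.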
